A study of Mus musculus with 20 samples.

Results

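Transcript levels of 10 genes for blood coagulation proteins made by hepatocytes were compared in mouse liver between a knockout of Ogt in the liver (KO) and wild type (WT). Ogt encodes the enzyme that adds single O-GlcNAc sugars to nuclear and cytoplasmic proteins. The genes were F2, F5, F7, F9, F10, F11, F12, Proc, Serpinc1 and Fgb, taken by their symbol in the array annotation, and all 10 were found among 19505 genes tested. Each had 1 feature on the Clariom S Mouse array. The groups were 4w-WT and 4w-KO, aged 4 weeks, and 8w-WT and 8w-KO, aged 8 weeks, with the genotypes labelled OGTL WT and OGTL KO and 5 arrays per group, 20 in all. No treatment was labelled. The sources used here do not say which promoter or agent drives the recombination, and nothing says that the arrays of a group came from separate animals, so p-values measure the spread between these arrays. Values are deposited log2 signals, so 1 unit is a 2-fold difference, and group values are means ± SD with n = 5.

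Coagulation runs as a cascade of serine proteases that circulate as inactive precursors. Factor XII and factor XI belong to the contact (intrinsic) branch, factor VII with tissue factor starts the extrinsic branch, and both factor VII and factor IX activate factor X. Factor X with its cofactor factor V turns prothrombin, the product of F2, into thrombin, which cleaves fibrinogen, of which Fgb encodes the beta chain. Antithrombin (Serpinc1) and protein C (Proc) restrain the cascade. F2, F7, F9, F10 and Proc encode vitamin K-dependent proteins, which need gamma-carboxylation by the enzyme encoded by Ggcx. The liver is the main source of all of these plasma proteins, and hepatocyte factors such as HNF4A and C/EBP alpha are known regulators of several of their genes.

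Ogt itself was 8.14 ± 0.53 in 4w-KO and 9.57 ± 0.31 in 4w-WT, a log2 difference of -1.43 (limma adjusted p = 8.82e-05). At 8 weeks it was 9.81 ± 0.21 and 10.08 ± 0.20, a difference of -0.27 that was not called (adjusted p = 0.529), so results at 8 weeks describe the arrays labelled 8w-KO. Which exons the Ogt feature covers is not stated. Array medians ran from 5.42 to 5.58. Hepatocyte markers were well above background: none of the 9 measured had a group mean at or below the background level of 5.02 to 5.20, set from 1412 olfactory and vomeronasal receptor genes. All group means of the coagulation genes were also above it, the lowest being 10.90. F2, Serpinc1 and Fgb read above 16 on every array, and Proc and F5 on some 8-week arrays of both genotypes. That is more than a 16-bit scan can hold, and how such values arose was not stated. The size of the differences of these genes is therefore that of the deposited scale. Skeletal muscle transcripts were high in 3 arrays, 4w-WT replicate 4 and 4w-KO replicates 4 and 5. In liver tissue, fewer hepatocytes and less transcript per hepatocyte cannot be told apart.

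At 4 weeks coagulation transcripts were lower in KO liver for 4 of the 10 genes: F11, F12, F5 and F2. None of the 10 was called higher. A gene was called at a limma adjusted p under 0.05 over all genes tested, and by that rule 10.2% of all genes were called, 5.48% lower and 4.7% higher. At an unadjusted p under 0.05 the count was 7 of 10, with each of the 7 lower in KO, against 22.4% of all genes, and by the exact permutation test it was 8 of 10, against 20.8%. The log2 difference was negative for 9 of the 10 genes. Their median difference was -0.43, against 0.00 over all genes tested. The groups did not overlap for 2 of the 10 genes, F11 and F5, against 8.55% of all genes.

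**Figure D1:**
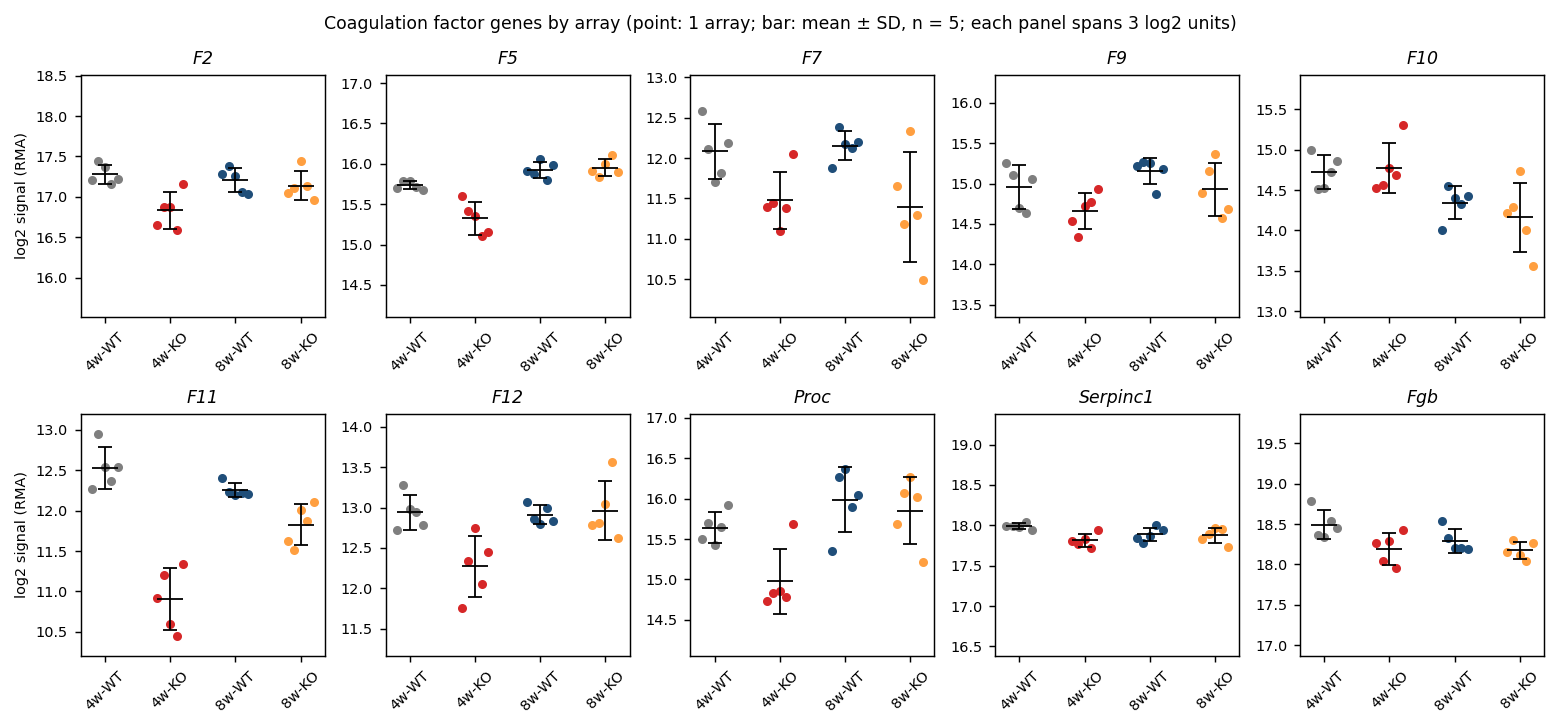
Log2 signal of the 10 coagulation genes (y axis) in the 4 groups (x axis), with a point per array and a bar for the mean ± SD of 5 arrays; every panel spans 3 log2 units. F11 in 4w-KO runs from 10.45 to 11.34, below all 15 other arrays, while Serpinc1 spans only 17.72 to 18.04 over all groups.

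F11 encodes factor XI, the contact branch protease that activates factor IX, and it had the largest difference of the 10. In 4w-WT its 5 arrays read 12.27, 12.95, 12.54, 12.37 and 12.54, and in 4w-KO 10.92, 11.21, 10.60, 10.45 and 11.34. Every KO array lay below every WT array. The means were 12.53 ± 0.26 and 10.90 ± 0.38, a log2 difference of -1.63 (SE 0.17, limma adjusted p = 2.70e-06), which put KO at 32.3% of WT. The exact permutation p was 0.00794, the smallest that 5 against 5 arrays can give. By absolute difference F11 ranked 190 of 19505 genes in this comparison.

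F12 encodes factor XII, the protease that starts the contact branch and activates factor XI. Its arrays read 12.72, 13.28, 12.98, 12.95 and 12.78 in 4w-WT and 11.76, 12.34, 12.75, 12.05 and 12.45 in 4w-KO. The ranges touched only through 4w-KO replicate 3, which lay above the lowest WT array. The means were 12.94 ± 0.22 and 12.27 ± 0.38, and the gene fell by 0.67 (SE 0.18, limma adjusted p = 0.0197). The call was lost without 4w-WT replicate 2 (adjusted p = 0.0647), 4w-KO replicate 1 (0.0632) or 4w-KO replicate 4 (0.0531).

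F5 encodes factor V, the cofactor of factor X. Its arrays read 15.70, 15.79, 15.79, 15.71 and 15.68 in 4w-WT and 15.60, 15.42, 15.35, 15.10 and 15.15 in 4w-KO. All KO arrays lay below all WT arrays, and the WT arrays were within 0.11 of each other. The difference was -0.41 (SE 0.11, limma adjusted p = 0.0183), with KO at 75.3% of WT. The 2 lowest KO arrays were those with high muscle transcripts, and without the 3 such arrays the difference was -0.28 (adjusted p = 0.200). Without 4w-KO replicate 4 alone the adjusted p was 0.0577.

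F2 encodes prothrombin. It read 17.21, 17.44, 17.37, 17.16 and 17.22 in 4w-WT and 16.65, 16.88, 16.88, 16.59 and 17.16 in 4w-KO. Only the highest KO array, replicate 5, reached the lowest WT value. F2 fell by 0.45 (SE 0.13, limma adjusted p = 0.0262), to 73.3% of WT. Its call was lost without 4w-WT replicate 2 (adjusted p = 0.0741) or 3 (0.0616), and without 4w-KO replicate 1 (0.0703) or 4 (0.0759). It held without the 3 arrays high in muscle transcripts (-0.51, adjusted p = 0.0393), as did the call of F11 (-1.67, adjusted p = 2.12e-05), while F12 did not (-0.66, adjusted p = 0.0842).

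Proc encodes protein C, the vitamin K-dependent protease that inactivates factor V and factor VIII. Its arrays read 15.50, 15.70, 15.43, 15.65 and 15.92 in 4w-WT and 14.73, 14.83, 14.86, 14.78 and 15.69 in 4w-KO. Of the KO arrays 4 lay between 14.73 and 14.86, below all WT arrays, and replicate 5 lay within the WT range. The difference of -0.66 (SE 0.22) was not called (limma adjusted p = 0.0569). Without 4w-KO replicate 5 it was -0.84 (adjusted p = 0.0107), and without the 3 arrays high in muscle transcripts -0.83 (adjusted p = 0.0390).

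Among the other vitamin K-dependent factors none was called at 4 weeks. F7, for the protease that starts the extrinsic branch, was 12.08 ± 0.34 in WT and 11.48 ± 0.35 in KO (-0.61, 95% CI -1.13 to -0.09, limma adjusted p = 0.141). F9, for factor IX, was 14.95 ± 0.27 and 14.66 ± 0.23 (-0.29, 95% CI -0.63 to 0.05, adjusted p = 0.309). F10, for the protease at which both branches meet, was 14.72 ± 0.21 and 14.77 ± 0.31 (0.05, 95% CI -0.34 to 0.44, adjusted p = 0.919). F10 was the only 1 of the 10 without a lower KO mean, and its sign turned when array medians were set equal (-0.02) or the 3 arrays high in muscle transcripts were left out (-0.10). F7 and F10 are neighbouring genes on chromosome 8 in the RefSeq annotation, and whether their KO effects at 4 weeks differed from each other was not tested.

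The fibrinogen and antithrombin genes had small differences at 4 weeks. Fgb was 18.49 ± 0.18 in WT and 18.19 ± 0.20 in KO (-0.30, 95% CI -0.55 to -0.05, limma adjusted p = 0.134). Serpinc1 was 17.99 ± 0.04 and 17.81 ± 0.08 (-0.18, 95% CI -0.37 to 0.02, adjusted p = 0.285). Serpinc1 varied little between arrays, with only 0.10 between the highest and lowest 4w-WT array, and only 4w-KO replicate 5 reached the lowest WT value of 17.94. The SE of 0.094 that the moderated fit gave it draws on the spread of all genes.

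**Figure D2:**
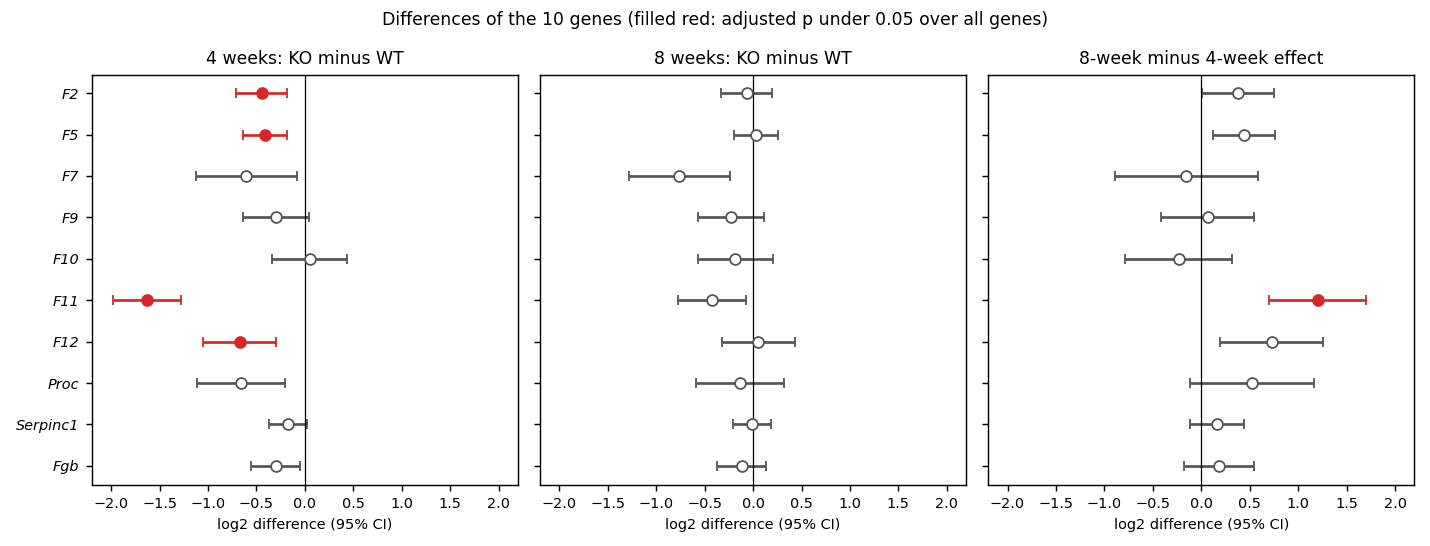
Log2 differences (x axis) of the 10 genes (y axis) with 95% confidence intervals for KO minus WT at 4 weeks, at 8 weeks, and for the 8-week effect minus the 4-week effect; filled red points have a limma adjusted p under 0.05 over all genes. F11 at -1.63 stands lowest at 4 weeks, no gene is filled at 8 weeks, and F11 at 1.20 is the only filled point in the third panel.

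Of other hepatocyte transcripts at 4 weeks, limma called 1 of 15 reference genes for plasma proteins (Fetub, lower) and 0 of 9 hepatocyte markers. The median log2 difference was -0.18 for the reference genes and -0.19 for the markers, against 0.00 over all genes. The hepatocyte marker means ran from 17.60 to 17.75 in 4w-WT and from 17.21 to 17.63 in 4w-KO. They overlapped only through 4w-KO replicate 5, an array high in muscle transcripts. The mean log2 signal of the 15 reference genes, such as Alb and Apoa1, was above 16 on every array. It ran from 18.72 to 18.80 in 4w-WT arrays and from 18.47 to 18.64 in 4w-KO arrays, without overlap. With every array centred on this mean, F11 still differed by -1.44 (limma adjusted p = 7.11e-06), and F12 (-0.49, adjusted p = 0.0573), F2 (-0.26, 0.141) and F5 (-0.22, 0.152) were not called. That centring raised the median difference of all genes by 0.19. Markers of Kupffer cells and macrophages had a mean of 7.75 to 8.24 in 4w-WT and 8.27 to 8.70 in 4w-KO, with 2 of 9 called higher (Gpnmb and Cd5l). Trem2 was not above background in either group, nor was Gpnmb in 4w-WT. Platelet and megakaryocyte markers were not called (0 of 6), and 4 of the 6 were not above background in either group. Their part, and that of the macrophage markers, in the coagulation results was not tested.

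The window of 250 bases before the start site is shown for the 4 genes called at 4 weeks and for F10, the gene whose KO mean was not lower, to set sequence beside response. Sequences are from RefSeq (GRCm38.p6), 5′ to 3′ on the gene's strand. Windows of 9 of the 10 genes were examined, and Proc was left out, so its window was not searched for matches. Capitals mark matches, on both strands, to the letters CAAAGTNCA (HNF4 type), GTTAAT (HNF1 type), TTGCNNAA (C/EBP type) and TGTTTNC (FOXA type). The windows are chr8:45262032-45262281 (F11, minus strand), chr13:55426805-55427054 (F12, minus), chr1:164151585-164151834 (F5, plus), chr2:91636458-91636707 (F2, minus) and chr8:13037058-13037307 (F10, plus).
F11: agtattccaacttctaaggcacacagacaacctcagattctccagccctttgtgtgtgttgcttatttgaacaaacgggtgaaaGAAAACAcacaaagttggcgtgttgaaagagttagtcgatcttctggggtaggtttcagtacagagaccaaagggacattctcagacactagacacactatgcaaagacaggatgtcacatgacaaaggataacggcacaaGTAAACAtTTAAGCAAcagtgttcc
F12: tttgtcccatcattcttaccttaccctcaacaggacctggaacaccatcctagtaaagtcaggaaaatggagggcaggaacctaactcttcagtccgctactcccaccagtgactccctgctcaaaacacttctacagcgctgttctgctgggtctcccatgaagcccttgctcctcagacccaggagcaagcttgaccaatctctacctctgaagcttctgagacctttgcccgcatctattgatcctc
F5: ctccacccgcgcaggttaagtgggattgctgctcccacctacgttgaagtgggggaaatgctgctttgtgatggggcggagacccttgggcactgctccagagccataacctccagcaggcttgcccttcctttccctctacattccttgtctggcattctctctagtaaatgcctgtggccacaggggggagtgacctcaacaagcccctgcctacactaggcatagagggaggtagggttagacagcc
F2: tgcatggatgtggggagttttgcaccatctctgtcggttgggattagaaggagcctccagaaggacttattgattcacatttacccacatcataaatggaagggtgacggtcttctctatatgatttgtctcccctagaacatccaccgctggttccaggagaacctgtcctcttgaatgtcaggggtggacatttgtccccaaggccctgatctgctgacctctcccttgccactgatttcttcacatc
F10: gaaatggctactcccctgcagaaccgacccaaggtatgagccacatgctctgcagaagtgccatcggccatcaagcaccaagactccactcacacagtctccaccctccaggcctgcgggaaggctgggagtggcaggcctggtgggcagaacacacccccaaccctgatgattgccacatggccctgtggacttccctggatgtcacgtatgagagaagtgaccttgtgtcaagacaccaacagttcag

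Among these windows only that of F11 held a match. It held a FOXA type match 166 to 160 bases before the start site, another 25 to 19 bases before it, and a C/EBP type match 17 to 10 bases before it, so that the last 2 matches lie side by side without overlap. The windows of F12, F5, F2 and F10 held no such letters. Over the 9 windows the HNF4 type matched 1 (F9), the HNF1 type 1 (Fgb), the C/EBP type 3 (F9, F11 and Fgb) and the FOXA type 2 (F11 and Fgb). Over 32841 promoter windows of the same length the shares were 1.19%, 6.43%, 9.57% and 17.8%. A match describes letters in a window and does not show that a factor binds there.

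At 8 weeks none of the 10 genes was called different between 8w-KO and 8w-WT (limma, 0 of 10), while 6.58% of all genes were called, 1.65% lower and 4.94% higher. At an unadjusted p under 0.05 the count was 2 of 10, F7 and F11, against 19.4% of all genes, and the exact permutation test gave the same 2, against 16.8%. Both counts were near these shares. The median difference was -0.13, against -0.04 over all genes. The groups did not overlap for 1 of the 10, F11, against 6.1% of all genes.

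F11 read 12.41, 12.23, 12.20, 12.22 and 12.21 in 8w-WT and 11.63, 11.51, 12.01, 11.87 and 12.11 in 8w-KO. All KO arrays lay below all WT arrays, by 0.09 at the nearest. The difference of -0.43 (SE 0.17, 95% CI -0.78 to -0.08) was not called (limma adjusted p = 0.156), although the exact permutation p before adjustment was 0.00794.

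F7 had the largest difference of the 10 at 8 weeks and the widest spread. It read 11.88, 12.38, 12.18, 12.13 and 12.20 in 8w-WT and 11.65, 11.19, 12.34, 11.30 and 10.49 in 8w-KO. In KO 4 arrays lay below all WT arrays, and replicate 3 lay near the top of the WT range. The difference was -0.76 (SE 0.25, 95% CI -1.28 to -0.24, limma adjusted p = 0.0742). Without 8w-KO replicate 3 it was -0.997 (adjusted p = 0.00609), with array medians set equal -0.87 (0.0378) and with array weights -0.76 (0.0491).

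The other 8 genes differed by -0.23 (F9) to 0.05 (F12) at 8 weeks, with limma adjusted p from 0.489 to 0.969. F5, called lower at 4 weeks, was 15.92 ± 0.10 in 8w-WT and 15.95 ± 0.11 in 8w-KO (0.03, 95% CI -0.20 to 0.26). F2 was 17.20 ± 0.15 and 17.14 ± 0.18 (-0.07, 95% CI -0.33 to 0.20), and F12 12.91 ± 0.12 and 12.96 ± 0.37 (0.05, 95% CI -0.32 to 0.43). The sign of these small differences turned for F5 (-0.09) and F12 (-0.06) with array medians set equal and for F2 (0.03) with quantile normalization repeated. The plasma protein reference genes overlapped between the groups at this age, with means of 18.57 to 18.67 in 8w-WT and 18.58 to 18.71 in 8w-KO. Cholangiocyte markers ran from 4.92 to 5.80 in 8w-WT and from 6.76 to 9.10 in 8w-KO, with 6 of 7 called higher, and 5 of 10 stellate cell markers were called higher. Kupffer cell and macrophage markers ran from 7.32 to 7.51 in 8w-WT and from 7.45 to 8.43 in 8w-KO. Of these 4 of 9 were called higher (Lyz2, Gpnmb, Trem2 and Adgre1). Trem2 was not above background in either group, nor was Gpnmb in 8w-WT. The others were not called: Clec4f (8.42 in WT and 7.74 in KO), Vsig4 (9.31 and 8.92), Timd4 (6.52 and 5.75) and Cd5l (10.20 and 10.16) had lower KO means, and Marco a higher one. The part of these cell type markers in the values at 8 weeks was not tested.

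The KO effect on F11 differed between the ages. The interaction of genotype and age for F11 was 1.20 on the log2 scale (SE 0.24, limma adjusted p = 0.00853), meaning a smaller deficit at the older age. It was the only call among the 10 genes, while 3.05% of all genes were called and 2.05% in that direction. F12 (0.73, 95% CI 0.19 to 1.26), F5 (0.44, 95% CI 0.12 to 0.76) and F2 (0.38, 95% CI 0.01 to 0.76) had intervals above 0 but limma adjusted p of 0.141, 0.141 and 0.301. A change of the KO effect with age was therefore called for F11 and not for the other 3 genes that fell at 4 weeks.

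Between 4 and 8 weeks 5 of the 10 coagulation genes were called in KO liver and 0 in WT liver, and the difference between the genotypes in this respect is the interaction, called for F11 alone. These comparisons use the same arrays as those above. In WT none of the 10 was called by limma, against 8.94% of all genes called, 3.71% higher and 5.23% lower. At an unadjusted p under 0.05 the count was 0 of 10, against 22% of all genes, and by the exact permutation test 3 of 10 (F5, F10 and F11), against 20.9%. The WT ages did not overlap for 1 of the 10, F5 (0.19, adjusted p = 0.335), against 9.08% of all genes. In KO 4 were called higher and 1 lower, against 7.85% and 6.78% of all genes, 14.6% in all.

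The 4 that rose in KO were F5, F11, Proc and F12. F11 rose by 0.92 (SE 0.17, limma adjusted p = 6.79e-04), and all 8w-KO arrays lay above all 4w-KO arrays. F5 rose by 0.63 (SE 0.11, adjusted p = 4.16e-04), also without overlap. Proc rose by 0.87 (SE 0.22, adjusted p = 0.00841), from 14.98 ± 0.40 to 15.85 ± 0.42, and F12 by 0.69 (SE 0.18, adjusted p = 0.0120). The F12 call was lost with only these 2 groups in the fit (adjusted p = 0.0557). Groups without overlap made up 9.47% of all genes in this comparison.

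F10 was the gene that fell with age in KO. It read 14.53, 14.56, 14.77, 14.69 and 15.30 in 4w-KO and 14.22, 14.29, 14.74, 14 and 13.56 in 8w-KO. The difference was -0.61 (SE 0.19, limma adjusted p = 0.0318), carried in part by a high 4w-KO replicate 5 and a low 8w-KO replicate 5. The call was lost without 4w-KO replicate 3 (adjusted p = 0.0535) or 5 (0.0950), or without 8w-KO replicate 1 (0.0530), 4 (0.0690) or 5 (0.0916). It was also lost without the 3 arrays high in muscle transcripts (-0.46, adjusted p = 0.168) and with only these 2 groups in the fit (0.0941). In WT the same gene differed by -0.38 with age (95% CI -0.77 to 0.01, adjusted p = 0.247), and the KO effect on F10 was not called to differ between the ages (adjusted p = 0.743).

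**Figure D3:**
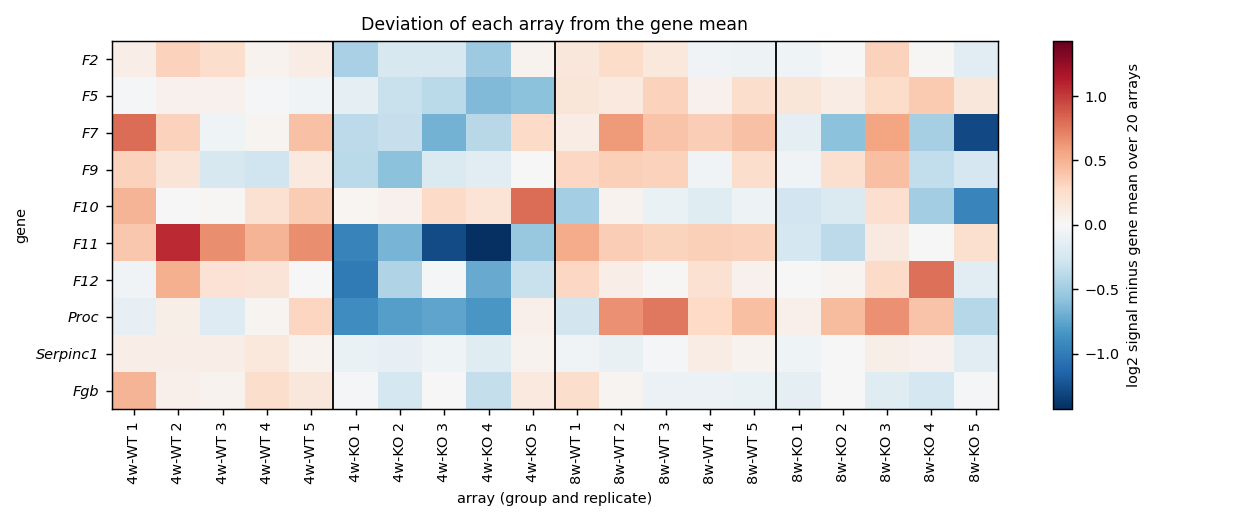
Log2 signal of each gene (rows) in each of the 20 arrays (columns, grouped), minus the mean of that gene over the 20 arrays; red is above and blue below the mean, with colours scaled to the largest deviation. The 4w-KO block is mostly blue for F11, F12, F5 and Proc, and 4w-KO replicate 5 is the highest of its group for 8 of the 10 genes.

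Some arrays were the highest or lowest of their group for several genes. In 4w-KO, replicate 5 was the highest array for 8 of the 10 genes and replicate 4 the lowest for 5; both held muscle transcripts. In 8w-KO, replicate 3 was the highest for 6 genes and replicate 5 the lowest for 6. In 4w-WT and 8w-WT no array was the highest for more than 4 genes or the lowest for more than 3.

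Other hepatocyte genes of haemostasis, from lists written with earlier results of these data known, were mostly uncalled at 4 weeks. Of 7 further procoagulant and contact genes 0 were higher, 1 lower and 6 neither. The 1 was Hgfac, the activator of hepatocyte growth factor and a protease related to factor XII, which fell from 12.30 to 11.23 (-1.07, limma adjusted p = 0.00453). The median of the list was -0.31, against 0.00 over all genes. The fibrinogen partners Fga (-0.17, adjusted p = 0.389) and Fgg (-0.17, adjusted p = 0.374) had differences near that of Fgb. Of 8 further anticoagulant genes 0 were higher, 1 lower and 7 neither, with a median of -0.25. The 7 include Serpina5, which was not above background in any group. The 1 was Serping1, which encodes the C1 inhibitor that blocks factor XIIa, factor XIa and kallikrein, and which fell from 16.35 to 15.34 (-1.01, adjusted p = 0.00339).

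Genes for fibrinolysis showed falls in the enzyme precursor and its inhibitor alike. Of 4 measured at 4 weeks, 0 were higher, 2 lower and 2 neither. Serpinf2, which encodes the plasmin inhibitor alpha-2-antiplasmin, fell from 15.93 to 15.10 (-0.84, limma adjusted p = 0.00171). Plg, which encodes plasminogen, fell from 17.97 to 17.53 (-0.44, adjusted p = 0.0250), a call that was lost without the 3 arrays high in muscle transcripts and in 5 of 20 omissions of a single array (adjusted p up to 0.0689). At 8 weeks 0 of these 19 further hepatocyte genes were called by limma, with Serpina5 among them not above background.

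**Figure D4:**
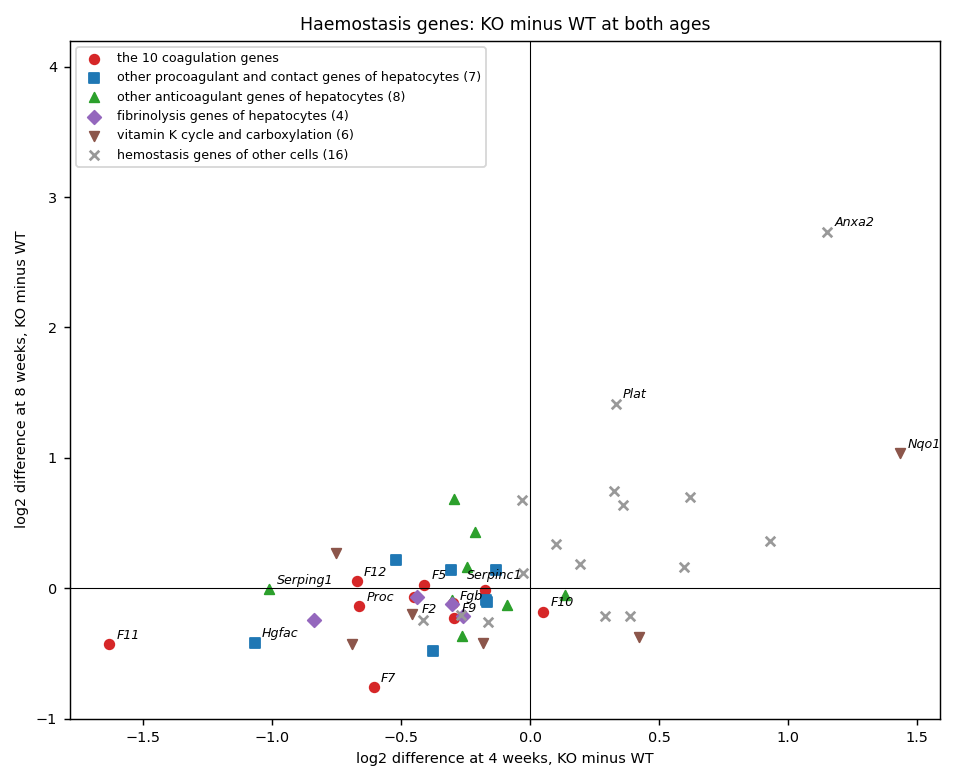
Log2 difference of KO minus WT at 4 weeks (x axis) against that at 8 weeks (y axis), with a point per gene and the symbol giving the list and the number of its genes measured. F11 at -1.63 lies furthest left and Anxa2 at 2.73 highest; the 10 coagulation genes have a median of -0.43 at 4 weeks and -0.13 at 8 weeks.

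Enzymes of the vitamin K cycle changed in both directions at 4 weeks. Ggcx, the carboxylase, fell from 12.77 to 12.08 (-0.69, limma adjusted p = 0.0318), and Vkorc1, the vitamin K epoxide reductase, from 15.72 to 15.26 (-0.46, adjusted p = 0.0299). The Vkorc1 call was lost without the 3 arrays high in muscle transcripts, and in single omissions the Vkorc1 and Ggcx calls were each lost in 6 of 20 (adjusted p up to 0.0824 and 0.103). Cyp4f14, a P450 of the 4F subfamily, fell by 0.75 (adjusted p = 0.00674). Nqo1, a quinone reductase that is also an NRF2 target, rose from 7.79 to 9.22 (1.43, adjusted p = 5.83e-04). In all 1 of 6 was higher, 3 lower and 2 neither, with a median of -0.32. At 8 weeks only Nqo1 was called (1.03, adjusted p = 0.0113). The ER cargo receptor genes Lman1 and Mcfd2, whose products carry factor V and factor VIII out of the ER, and Surf4 were not called at either age (0 of 3 each).

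Of 16 haemostasis genes expressed mainly outside hepatocytes, 14 were not called at 4 weeks and 12 at 8 weeks. At 4 weeks 2 were higher and 0 lower, namely the thrombin receptor gene F2r (0.93, limma adjusted p = 0.0225) and the annexin gene Anxa2 (1.15, adjusted p = 0.0343). The F2r call was lost without the 3 arrays high in muscle transcripts and in 3 of 20 omissions of a single array (adjusted p up to 0.0684), and the Anxa2 call in 7 of 20 (up to 0.0940). At 8 weeks 4 were higher and 0 lower. The tissue plasminogen activator gene Plat rose from 4.53, not above background, to 5.94 (1.42, adjusted p = 1.72e-05), and Anxa2, whose product binds that activator at cell surfaces, from 5.43 to 8.16 (2.73, adjusted p = 2.79e-05). Plaur (0.74) and Plau (0.70), the urokinase receptor and urokinase genes, were called but were not above background in either group, and the Plau call was lost in 10 of 20 single omissions (adjusted p up to 0.128). F8 (-0.03 at 4 weeks and 0.12 at 8 weeks), which is made by endothelium, was not called. Nor was the tissue factor gene F3 (0.36 and 0.64), which was above background only in 8w-KO. Procr, F13a1 and F2rl3, uncalled at both ages, were not above background in any group, nor were Plat, Plau and Plaur at 4 weeks.

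Among 16 measured hepatocyte transcription factor genes 0 were higher and 3 lower at 4 weeks, with a median of -0.64. Nr5a2, which encodes LRH-1, fell by 1.08 (limma adjusted p = 2.70e-05), Nr1i3, which encodes CAR, by 1.47 (0.00575), and Esr1, the estrogen receptor, by 1.07 (0.0244). The Esr1 call was lost without the 3 arrays high in muscle transcripts and in 4 of 20 omissions of a single array (adjusted p up to 0.0674). Hnf4a (-0.28, adjusted p = 0.574) and Cebpa (-0.56, adjusted p = 0.118), genes of known regulators of coagulation genes, were not called at 4 weeks. At 8 weeks Cebpa was lower (-0.77, adjusted p = 0.0349), as the only 1 of the 16 called, and the call was lost in 8 of 20 single omissions (adjusted p up to 0.0881) and with quantile normalization repeated. Of 7 genes of IL-6 signalling, which drives fibrinogen synthesis in the acute phase, 0 were called at 4 weeks and only Osmr at 8 weeks (1.66, adjusted p = 3.20e-04).

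The genes whose array profiles lay nearest to F11 were Cnpy2, Mmachc and Itih1. Likeness was the root mean square distance over 20 arrays between values centred on each gene's own mean, and it was 0.25, 0.30 and 0.31 log2 units, against an SD of 0.68 for F11 over the arrays. Since they were picked by likeness to F11 over the same arrays, their differences at 4 weeks follow from the choice and are given without a test. These were -1.39 for Cnpy2, which encodes an ER protein, -1.56 for Mmachc, of cobalamin metabolism, and -1.17 for Itih1, an inter-alpha-trypsin inhibitor heavy chain. Nearest to F7 were the mitochondrial serine hydroxymethyltransferase gene Shmt2 (0.27), Bhmt2 (0.28) and Txnrd2 (0.28), against an SD of 0.53. Nearest to F10, the member with the largest age difference in WT, were Mrpl51 (0.20), Grpel1 (0.21) and Cox5a (0.21), all genes for mitochondrial proteins, against an SD of 0.38. Chosen after their values were seen, the 2 genes nearest to Fgb were the genes of its fibrinogen partners Fgg (0.10) and Fga (0.11), against an SD of 0.20. Next came the olfactory receptor gene Olfr1178 (0.13), so a short distance to Fgb was not particular to fibrinogen genes.

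**Figure D5:**
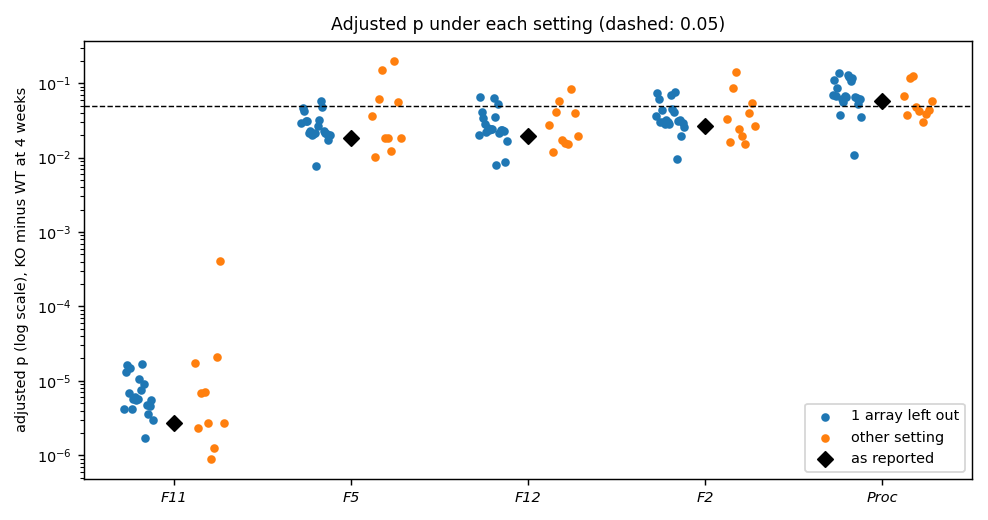
Adjusted p of KO minus WT at 4 weeks (y axis, log scale) for F11, F5, F12, F2 and Proc (x axis) as reported (diamond), with 1 array left out (blue) and under other settings (orange); the dashed line is 0.05. All F11 points lie below 0.001, while points of the other 4 genes fall on both sides of the line.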

How the data were processed

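Liver RNA was measured on 20 Clariom S Mouse arrays. The authors processed them with RMA in Affymetrix Expression Console, per the submitters' processing notes (versions not given in the sources used here), and deposited log2 signals, which were used unscaled. Of 22206 features 19572 had a single gene symbol, and the feature with the highest mean was kept for each of 19505 genes. Groups came from the sample titles. Group means were fitted over all 4 groups with limma 3.58.1 in R 4.3.3 (16 residual degrees of freedom), with Benjamini-Hochberg adjustment over all genes. Exact permutation tests were two-sided. On simulated data the fit recovered 9% (4 weeks) and 14% (8 weeks) of KO changes of 0.5 log2 units. Of changes of 1 unit it recovered 88% and 79%. A gene that was not called may therefore still differ by 0.5 units. Named were Ogt, the 10 genes, up to 4 called genes per other list, and 3 nearest genes for the leading members. Uncalled genes of other lists named for context (Fga, Fgg, F8, F3, Lman1, Mcfd2, Surf4, Hnf4a and Cebpa at 4 weeks) fall outside this rule and were chosen after their values were seen. So do the marker genes Gpnmb, Cd5l, Trem2, Lyz2, Adgre1, Clec4f, Vsig4, Timd4 and Marco, and Olfr1178. Serpina5, Procr, F13a1 and F2rl3, named for their low signal, do so too. The background level, the 95th percentile of receptor genes, follows earlier work on these data. The members and lists were chosen with earlier results of these data known. Array number limits precision, and scan dates were not used here. Alternatives were a replicate block, other scalings, filters, weights and leaving out arrays.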

Additional observations from a re-analysis of the deposited data

Results flagged for a closer look

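Among 44 sets of 5 arrays (the 10 coagulation genes and Ogt in each group), 3 held an array far from the others by Dixon's test, which chance gives in about 1 of 20 sets. Proc was 15.69 in 4w-KO replicate 5, against 14.73 to 14.86 in the other arrays of that group. F11 was 12.41 in 8w-WT replicate 1, against 12.20 to 12.23. F9 was 14.87 in 8w-WT replicate 4, against 15.18 to 15.27.

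The KO effect differed between the ages for 7 of the genes named here (limma adjusted p for the difference under 0.05). Apart from Ogt and the 10 coagulation genes, genes were mostly named because they were called in a comparison. The count of 7 follows in part from that naming, so it is not a share to compare with the 3.05% of all genes called for this difference. Marker genes and the genes picked by nearness are not in this count, and the macrophage marker gene Lyz2 was also called. The effect at 8 weeks minus that at 4 weeks was 1.20 for F11, 1.16 for Ogt, 1.02 for Cyp4f14, 0.81 for Nr5a2, 0.78 for Fetub, 1.66 for Osmr and 1.08 for Plat. For the plasma protein gene Fetub the adjusted p was 0.0446, and 17 of 20 single omissions of an array ended the call (adjusted p up to 0.0857). For Ogt 7 of 20 did so (up to 0.0605), for Cyp4f14 2 and for Nr5a2 1. Centring on plasma protein genes ended the calls for Fetub, Ogt, Cyp4f14, Nr5a2 and Plat. Plat was above background only in 8w-KO, so its value rests on 3 groups that were not above background.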

How the results depend on the processing

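F11 kept its direction and its call at 4 weeks under all alternatives (-1.44 to -1.74), and its age difference did so too. The count of 4 genes called lower at 4 weeks became 2 with quantile normalization repeated and 1 with arrays centred on hepatocyte plasma protein genes, and 1 to 5 with an array left out. It was 5, with Proc also called, with array medians set equal (adjusted p of Proc 0.0368), the dimmest genes left out (0.0482), an intensity trend with robust eBayes (0.0424) or array weights (0.0300). It was 3 with only the 2 groups in the fit, where Proc was called (0.0435) and F2 (0.0545) and F5 (0.0560) were not. The count of 0 lower at 8 weeks became 1 (F7) with array medians set equal and 1 with array weights, and 0 to 1 with an array left out. In WT with age the count of 0 higher became 1 (F5) with that centring on plasma protein genes. In KO with age the count of 1 lower (F10) became 0 with the replicate block, 0 without the 3 arrays high in muscle transcripts, 0 with only the 2 groups in the fit, and 0 to 1 with an array left out. Whether replicate numbers pair the arrays was not settled. Over all groups 5 of 30 same-numbered pairs correlated above 0.1, and 9 of 60 best matches had the same number. Of those 5 pairs, 4 were among the 5 pairs of 4w-WT with 4w-KO (0.139, 0.32, 0.159 and 0.479, with -0.146 for replicate 5). The block changed no other call of the 10 genes, though 4 calls of other named genes between the genotypes were lost (Plg and Vkorc1 at 4 weeks, Plau and Shmt2 at 8 weeks), and it called 818 genes higher and 986 lower at 4 weeks in place of 917 and 1068.

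Small differences that were not called changed sign. With array medians set equal these were F10 at 4 weeks (-0.022), F5 (-0.086) and F12 (-0.06) at 8 weeks and F12 with age in WT (0.02). With quantile normalization repeated they were F2 (0.0316) and Serpinc1 (0.0818) at 8 weeks, F12 with age in WT (0.0102) and Serpinc1 with age in KO (-0.037). With arrays centred on plasma protein genes they were Serpinc1 at 4 weeks (0.0091), the age differences of the KO effect for F9 (-0.15), Serpinc1 (-0.0485) and Fgb (-0.0285), F2 (0.0615), F12 (0.10) and Serpinc1 (0.0355) with age in WT, and Serpinc1 with age in KO (-0.0131). Without the 3 arrays high in muscle transcripts they were F10 at 4 weeks (-0.10), and F7 for the age difference of the KO effect (0.0708) and with age in KO (0.0773). With array weights it was Fgb with age in KO (0.0028). Leaving out an array gave F10 at 4 weeks from -0.0825 to 0.118, and at 8 weeks F5 from -0.0115 to 0.062, F12 from -0.0955 to 0.1395, Proc from -0.2955 to 0.0245 and Serpinc1 from -0.0385 to 0.024. It gave the age difference of the KO effect from -0.3905 to 0.072 for F7 and from -0.0415 to 0.156 for F9. With age in WT it gave F7 from -0.021 to 0.1965 and F12 from -0.0895 to 0.0505, and with age in KO F7 from -0.3185 to 0.144 and Fgb from -0.079 to 0.041. The cause was not tested.

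The count of 4 fell to 1 without 4w-KO replicate 4 and to 2 without 4w-WT replicate 2 or 4w-KO replicate 1. The share of called genes that were higher moved from 46.2% to 33.2% at 4 weeks and from 75.0% to 48.3% at 8 weeks with array medians set equal, and to 80.0% at 4 weeks with the centring on plasma protein genes (2317 higher and 578 lower). With that centring it moved from 67.1% to 22.3% for the age difference of the KO effect, from 41.5% to 72.1% with age in WT and from 53.7% to 40.4% with age in KO, and with array medians set equal to 52.0% with age in WT. Genes called lower at 8 weeks numbered 856 with medians set equal in place of 321. The feature with the lowest mean gave the same values for the 10 genes, which have 1 feature each.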
